A study of Homo sapiens with 12 samples.

Results

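Metallothioneins, the metal-response factor MTF1 and the zinc exporter SLC30A1 were followed across 12 RNA-seq libraries of 2 human cancer cell lines. The 9 genes were taken from the deposited gene table by symbol, out of 40295 gene identifiers, and each symbol had 1 identifier. They comprised 7 metallothioneins (MT1A, MT1E, MT1F, MT1G, MT1M, MT1X and MT2A), MTF1 and SLC30A1. TOV-112D is an ovarian cancer line that carries p53-R175H, a substitution that disturbs the zinc site of p53, and all of its groups share this mutation. TOV-112D cells received DMSO (the vehicle), UCI-1001 or UCI-1014 for 3 h, with 2 libraries each. UCI-1001, a candidate reactivator of mutant p53, was used at 10 µM, and UCI-1014 is an analog with a methoxy group in place of a nitro group. For UCI-1014 the dose used for RNA-seq is not given in the sources used here. Saos-2 is an osteosarcoma line without p53. The p53-null libraries are its parental form, the p53-WT libraries come from a stable line with doxycycline-inducible wild-type p53 delivered by lentivirus, and the labels give 16 h of induction for both, with 3 libraries each. The presence of p53 and the derivation of the inducible line therefore cannot be told apart. The labels do not say whether replicates were separate cultures, so p-values measure the spread between these libraries only.

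Metallothioneins are small cysteine-rich proteins that bind zinc and copper, and most human MT genes lie in a single cluster on chromosome 16. MTF1 is a zinc-finger transcription factor that senses free zinc and binds metal response elements (MREs) in the promoters of metallothioneins and of SLC30A1. SLC30A1 (also called ZnT1) sits in the plasma membrane and exports zinc from the cell. Loss of zinc from p53-R175H is a known cause of its misfolding, which is why zinc-handling genes are of interest in these cells.

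The MREs are shown here because they are the DNA element through which the 4 expressed members are commonly linked. RefSeq promoters (GRCh38.p14, 250 bases before to 50 bases after the start site) were matched for 4 of the 9 members, MT2A, MT1X, SLC30A1 and MTF1. MT1A, MT1E, MT1F, MT1G and MT1M were not matched. The stretches before the start site are printed 5′ to 3′ on the gene's strand, and capitals mark MRE matches (TGCACNC or TGCGCNC, either strand). In GENCODE 44 (GRCh38) the genes lie at chr16:56608584-56609497 (MT2A, plus strand), chr16:56682470-56684196 (MT1X, plus strand), chr1:211571568-211579161 (SLC30A1, minus strand) and chr1:37809574-37859592 (MTF1, minus strand). The printed stretches span chr16:56608334-56608583 (plus strand) for MT2A, chr16:56682220-56682469 (plus strand) for MT1X and chr1:211579162-211579411 (minus strand) for SLC30A1.
MT2A: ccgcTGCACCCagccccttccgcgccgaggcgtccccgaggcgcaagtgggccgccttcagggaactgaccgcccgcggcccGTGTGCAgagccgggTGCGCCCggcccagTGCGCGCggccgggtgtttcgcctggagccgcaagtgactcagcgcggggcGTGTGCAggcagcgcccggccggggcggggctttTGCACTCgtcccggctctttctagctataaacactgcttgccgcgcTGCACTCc
MT1X: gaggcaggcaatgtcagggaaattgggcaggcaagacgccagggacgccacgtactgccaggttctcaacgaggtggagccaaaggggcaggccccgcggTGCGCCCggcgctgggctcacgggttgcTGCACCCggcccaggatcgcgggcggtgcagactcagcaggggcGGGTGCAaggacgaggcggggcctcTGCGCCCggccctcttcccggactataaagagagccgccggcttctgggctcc
SLC30A1: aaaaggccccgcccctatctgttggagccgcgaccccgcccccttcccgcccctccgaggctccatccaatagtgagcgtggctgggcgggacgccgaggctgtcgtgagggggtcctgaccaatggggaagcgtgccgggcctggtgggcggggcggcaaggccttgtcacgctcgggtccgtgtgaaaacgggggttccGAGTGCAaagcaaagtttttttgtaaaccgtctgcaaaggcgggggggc

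The MT2A window held 8 MRE matches, 7 of them printed and 1 at base 31 after the start, and 0.01993% of 35116 RefSeq promoters of this length held as many. The MT1X window held 4 matches, a number reached by 0.6009% of promoters. The SLC30A1 window held 2, one printed and one at base 25 after the start, a number reached by 8.6% of promoters. The MTF1 window (chr1:37859543-37859842, minus strand) held 0, and at least 1 match was found in 29.55% of all promoters. A TATAAA box lay 29 bases before the start of MT2A and 30 bases before that of MT1X. This motif was sought on the gene strand only and was present there in 7.33% of promoters. The antioxidant response core TGACNNNGC occurred once each in MT2A, MT1X and SLC30A1 and in 13.35% of promoters. The heat shock core GAANNTTC, present in 6.769% of promoters, was not in these 4 windows. No matches overlapped each other. These are letter matches only, and binding was not measured here.

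**Figure D1:**
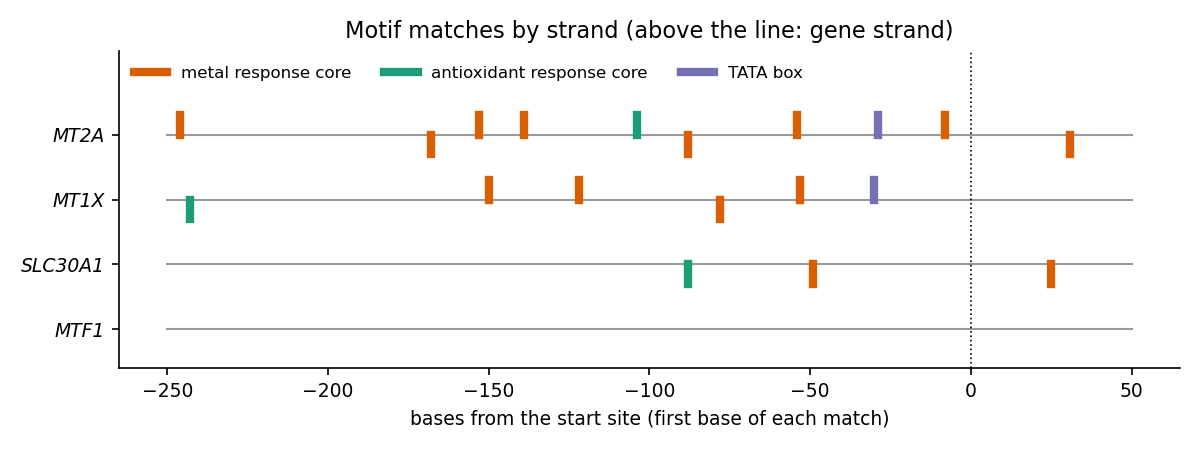
Motif matches in the promoter windows of MT2A, MT1X, SLC30A1 and MTF1. The x axis is the distance in bases from the start site, marks above a line lie on the gene strand and marks below it on the opposite strand. MT2A holds 8 metal response matches, MT1X 4, SLC30A1 2 and MTF1 0.

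The libraries held 17762027 to 20717898 counts in TOV-112D and 19593655 to 24629558 in Saos-2. At these depths 3 counts corresponded to 0.148 to 0.180 CPM (counts scaled to the library's normalized size) in TOV-112D and 0.131 to 0.150 CPM in Saos-2. The cell type markers went against the labels of both lines in part. In Saos-2 libraries 5 of 8 osteoblast markers were under 1 CPM throughout (SP7 had 0 counts, IBSP at most 2 and BGLAP at most 4). SPP1 (13.5 to 44.5 CPM, against at most 0.659 CPM in TOV-112D) went with the bone label. RUNX2 did not separate the lines, at 4.15 to 12.1 CPM in Saos-2 and 4.72 to 9.21 CPM in TOV-112D. The epithelial keratins KRT8 (194 to 566 CPM) and KRT18 (402 to 558 CPM) were high. Of the 7 ovarian and epithelial markers 5 were above 1 CPM in every Saos-2 library, VIM (1960 to 2347 CPM) and PAX8 (3.27 to 7.55 CPM) included. VIM is not specific to epithelial cells and was high in both lines, so it does not tell the labels apart. VIM (7722 to 8225 CPM) and EPCAM (1.80 to 3.09 CPM) were above 1 CPM in every TOV-112D library. In TOV-112D libraries 4 of 7 ovarian and epithelial markers were under 1 CPM throughout, among them PAX8 (at most 1 count) and KRT18 (0 counts), while 4 of 8 osteoblast markers were above 1 CPM throughout, with COL1A1 at 47.6 to 53.2 CPM against at most 1.84 CPM in Saos-2. Whether the line labels of these libraries are right was not tested, and differences between the lines hold for the libraries as labelled. The replicate 1 libraries of p53-null and p53-WT stood apart from the other two of their group, their chi-square values divided by the degrees of freedom being 22.1 to 37.0 against 3.31 to 4.07 between replicates 2 and 3. The lines are named here as labelled, and results in Saos-2 are also given without both replicate 1 libraries.

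Of the 7 metallothioneins only MT2A and MT1X had more than 3 counts in any of the 12 libraries. MT1A and MT1M had 0 counts in all 12 libraries. MT1G had 1 count, in p53-null replicate 2, and MT1E had 1 count in each p53-WT library and 0 elsewhere. MT1F was counted only in TOV-112D, with 0 and 3 counts in DMSO, 1 and 2 with UCI-1001 and 0 and 1 with UCI-1014. In these bulk samples fewer cells of a type and less RNA per cell cannot be told apart, here and for all results that follow. All these values lie at or below the limit of 3 counts, so a difference between groups was not detectable at this depth for these 5 genes, and they did not pass the filter on low counts. The other 12 metallothionein genes and pseudogenes of the list, among them MT1H, MT3 and MT4, did not pass it either and had at most 3 counts in a library. Metallothionein genes are near-identical in sequence, so how reads were divided between them is uncertain.

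Per length, MT2A was the most abundant member in Saos-2 and MT1X in TOV-112D. These levels are in TPM, a length-corrected abundance deposited per transcript and here summed by gene. MT2A reached 502 ± 60.5 TPM in p53-null (SD, n = 3), 415 ± 31.8 in p53-WT (n = 3), 27.5 ± 1.77 in DMSO (n = 2), 26.7 ± 6.44 with UCI-1001 (n = 2) and 14.3 ± 2.20 with UCI-1014 (n = 2). The DMSO and UCI-1001 ranges overlapped (26.3 to 28.8 and 22.1 to 31.2), the UCI-1014 range lay below both, and the 2 Saos-2 groups nearly touched, at 455 to 570 and 395 to 452.

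MT1X reached 112 ± 11.8 TPM in p53-null, 54.4 ± 1.76 in DMSO, 42.6 ± 2.25 with UCI-1001, 36.3 ± 4.32 in p53-WT and 18.9 ± 0.424 with UCI-1014. No neighbours in this order overlapped, although the highest p53-WT library (40.3) came close to the lowest UCI-1001 library (41.0). The libraries labelled p53-null Saos-2 held 18.2 times the MT2A TPM of DMSO-treated TOV-112D and 2.06 times its MT1X TPM, a side-by-side reading in which cell line, treatment and time differ together and which was not tested.

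SLC30A1 was highest in p53-WT and lowest in p53-null Saos-2, with the TOV-112D groups between them. It reached 22.8 ± 10.2 TPM in p53-WT, 11.2 ± 0.176 with UCI-1001, 9.60 ± 0.846 with UCI-1014, 9.43 ± 0.771 in DMSO and 4.51 ± 0.330 in p53-null. The p53-WT libraries ran from 11.0 to 29.0 TPM and those with UCI-1001 from 11.0 to 11.3 TPM, so these groups were not separated, nor were UCI-1014 and DMSO. MTF1 stayed within 2.99 to 9.05 TPM over all 12 libraries, with overlapping neighbours throughout. This TPM spread did not follow the counts. UCI-1014 replicate 2 had more MTF1 TPM than replicate 1 (9.05 against 6.38) but less CPM (28.3 against 31.2).

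**Figure D2:**
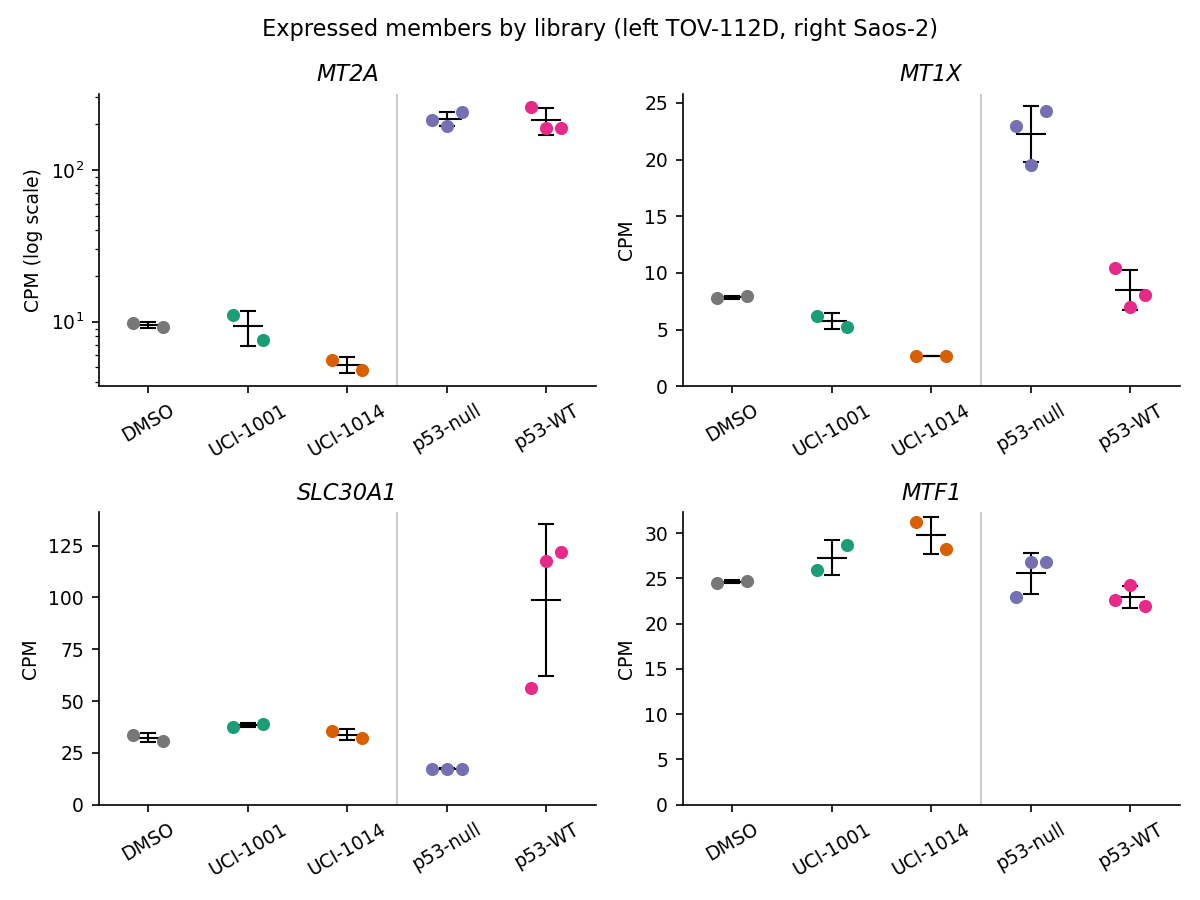
Level in CPM (y axis, on a log scale for MT2A) of MT2A, MT1X, SLC30A1 and MTF1 in each library by group (x axis). Points are libraries and bars are the mean with SD (n = 2 in TOV-112D groups, n = 3 in Saos-2 groups). MT2A and MT1X are lowest with UCI-1014 and SLC30A1 is highest in p53-WT, where replicate 1 lies at 56.4 CPM and the other libraries at 117 and 122 CPM.

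Both expressed metallothioneins were lower after 3 h of UCI-1014, MT1X by 2.93-fold and MT2A by 1.84-fold, while the exporter SLC30A1 did not pass the test. Compared with DMSO, 3 of the 4 tested members passed the test (MT1X and MT2A fell, MTF1 rose), where 44.2% of all 14983 genes tested passed it, 21.5% of them lower and 22.8% higher. MT1X stood at 7.78 and 7.96 CPM in DMSO and at 2.70 and 2.67 CPM with UCI-1014. Every UCI-1014 library was below every DMSO library. MT1X fell by 1.55 on the log2 scale (SE 0.16, 95% interval -1.92 to -1.19, edgeR quasi-likelihood test with Benjamini-Hochberg adjustment, adjusted p = 3.4e-05), a 2.93-fold lower level. Over all genes, 0.921% passed the test with a log2 fold change under -1, and MT1X was the 80th lowest of 14983 genes.

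MT2A, in most tissues the main metallothionein isoform, changed less. It stood at 9.84 and 9.26 CPM in DMSO and at 5.63 and 4.77 CPM with UCI-1014, again without overlap. It fell by 0.88 on the log2 scale (SE 0.19, 95% interval -1.30 to -0.47, edgeR adjusted p = 0.0032), a 1.84-fold lower level and the 338th lowest of all genes. Summed over the 7 metallothioneins, the level was 81.9 and 82.4 TPM in DMSO and 35.1 and 31.8 TPM with UCI-1014.

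These reads are few: MT1X had 151 and 147 counts in DMSO and 45 and 52 with UCI-1014, and MT2A had 191 and 171 against 94 and 93. Both transcripts are short, with mean lengths of 454 bases (MT1X) and 781 bases (MT2A). The 1264 tested genes under 1000 bases had a median of -0.15 on the log2 scale after UCI-1014 (31.4% of them lower, 9.41% higher), against 0.014 for genes of 2000 to 4000 bases. Of these short genes 4.51% fell more than MT2A and 1.58% more than MT1X. The part of transcript length in the result was not tested.

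The factor itself moved slightly the other way. MTF1 stood at 24.5 and 24.8 CPM in DMSO and at 31.2 and 28.3 CPM with UCI-1014, without overlap. MTF1 rose by 0.27 on the log2 scale (SE 0.08, edgeR adjusted p = 0.019), 1.20-fold, and this call was lost without either DMSO library, without UCI-1014 replicate 1 and in one fit of all 12 libraries, with edgeR adjusted p of 0.075 to 0.22. SLC30A1 stood at 33.8 and 30.9 CPM in DMSO and at 35.8 and 32.0 CPM with UCI-1014, which overlapped. Its log2 fold change was 0.06 (95% interval -0.11 to 0.23, edgeR adjusted p = 0.55). Non-overlap by itself was common in this comparison: 3 of 4 members and 72.8% of all genes did not overlap between the groups.

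With UCI-1001 none of the 4 tested members passed the edgeR test, against 13.0% of all genes (7.75% higher, 5.22% lower). At an unadjusted p under 0.05 there were 2, MT1X and SLC30A1, and DESeq2 called 0. Over all genes DESeq2 called 1631 of 13014. In the edgeR fit with identifiers kept apart, 4062 of 14989 genes had an unadjusted p under 0.05. MT1X stood at 6.22 and 5.27 CPM with UCI-1001, both libraries below DMSO. Its log2 fold change was -0.45 (SE 0.15, 95% interval -0.78 to -0.13, edgeR adjusted p = 0.071). The zinc exporter SLC30A1 stood at 37.6 and 38.9 CPM, both above DMSO, with a log2 fold change of 0.24 (SE 0.07, edgeR adjusted p = 0.063). Without UCI-1014 replicate 1, without UCI-1014 replicate 2, with only the 4 libraries compared, or with no filter on low counts, SLC30A1 was called, with an adjusted p down to 0.017.

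For MT2A and MTF1 a difference beyond the spread was not detected with UCI-1001. MT2A stood at 11.1 and 7.63 CPM, on both sides of DMSO, with a log2 fold change of -0.03 (95% interval -0.41 to 0.35, edgeR adjusted p = 0.94). MTF1 stood at 25.9 and 28.7 CPM, with a log2 fold change of 0.15 (edgeR adjusted p = 0.27). Both MTF1 libraries lay above DMSO. In this comparison 3 of 4 members and 57.1% of all genes did not overlap between the groups.

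The metallothioneins also differed between the compounds, at 3 h and at doses of which one is not given. When UCI-1014 was tested directly against UCI-1001, 2 of 4 members passed and both were lower, against 27.7% of all genes (11.5% lower). The libraries of 3 of 4 members and of 63.0% of all genes did not overlap. MT1X was lower with UCI-1014 by a log2 fold change of -1.10 (SE 0.17, edgeR adjusted p = 9.1e-04), 2.14-fold, and was the 109th lowest of 14983 genes. Over all genes, 0.240% passed the test with a log2 fold change under -1. MT2A was lower by a log2 fold change of -0.85 (SE 0.19, edgeR adjusted p = 0.0072), 1.80-fold, and without UCI-1001 replicate 1, the higher of its libraries, the value was -0.56. Genes under 1000 bases had a median log2 fold change of -0.11 in this comparison (21.0% of them lower, 5.62% higher). Of these short genes 2.93% fell more than MT2A and 1.58% more than MT1X, and the part of transcript length was not tested. SLC30A1 differed by -0.18 (95% interval -0.34 to -0.01, edgeR adjusted p = 0.11) and MTF1 by 0.12 (95% interval -0.05 to 0.29, edgeR adjusted p = 0.28). Neither of these passed the test, which does not show that the compounds act alike on them. Both compounds share the DMSO libraries, so their separate changes from DMSO are not independent.

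**Figure D3:**
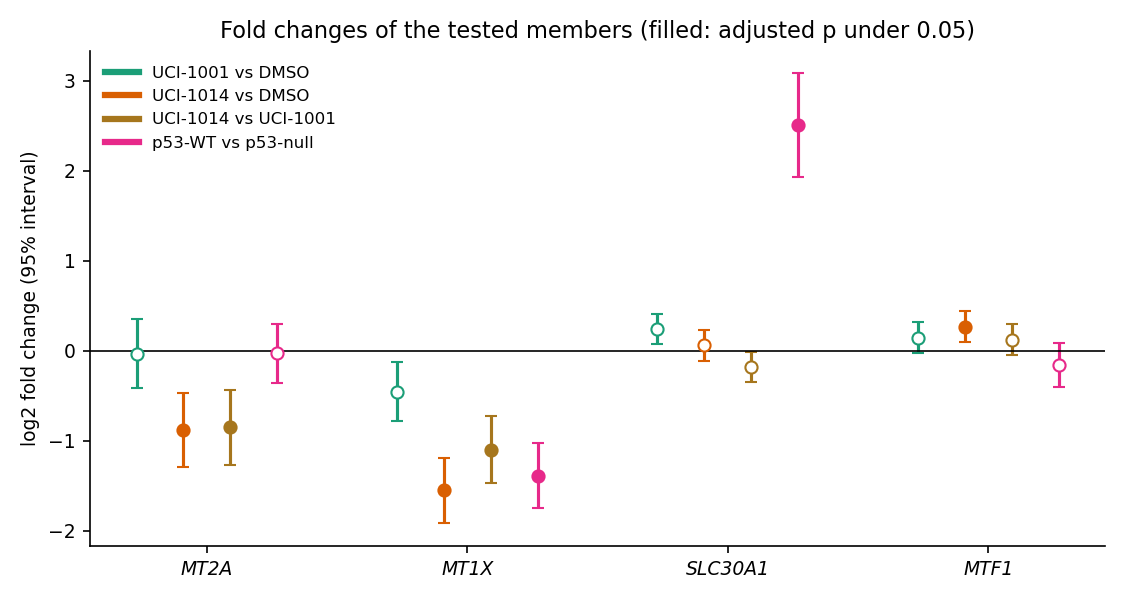
Log2 fold change (y axis) of MT2A, MT1X, SLC30A1 and MTF1 (x axis) in 4 comparisons, one colour each. Bars are 95% intervals and filled points passed the edgeR test at an adjusted p under 0.05. MT1X is negative throughout and passes in 3 comparisons, and SLC30A1 passes only in p53-WT against p53-null.

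Wild-type p53 in Saos-2 cells went with a higher level of the exporter and a lower level of MT1X. Of the 4 tested members 2 passed, 1 in each direction, in a comparison in which 65.0% of 15074 genes passed (32.9% higher, 32.1% lower). A share of 2 in 4 is no more than that background. SLC30A1 stood at 17.5, 17.1 and 17.4 CPM in p53-null and at 56.4, 117 and 122 CPM in p53-WT. The groups did not overlap, as was the case for 2 of 4 members and 69.9% of all genes. Replicate 1 of p53-WT lay well below the other two p53-WT libraries.

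SLC30A1 rose by a log2 fold change of 2.51 (SE 0.26, 95% interval 1.93 to 3.09, edgeR adjusted p = 1.7e-05), a 5.68-fold higher level and the 944th highest of 15074 genes. Without both replicate 1 libraries, the ones that stood apart, its log2 fold change was 2.80. At the stricter adjusted p under 0.001 SLC30A1 was called too, where 20.5% of genes were called higher. At an adjusted p under 0.05, 17.6% of genes were called with a log2 fold change over 1 and 12.6% with one under -1. These are the size classes of SLC30A1 and MT1X.

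MT1X stood at 22.9, 19.6 and 24.3 CPM in p53-null and at 10.5, 7.03 and 8.03 CPM in p53-WT, without overlap. It fell by 1.39 on the log2 scale (SE 0.16, 95% interval -1.75 to -1.02, edgeR adjusted p = 4.0e-05), a 2.61-fold lower level and the 1018th lowest of all genes. Without both replicate 1 libraries its log2 fold change was -1.54. Genes under 1000 bases had a median log2 fold change of 0.18 in this comparison (19.9% of them lower, 32.1% higher), and 4.20% of them fell more than MT1X. The part of transcript length was not tested here either. MT1X also met the stricter threshold, and 16.7% of all genes were called lower by it.

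For MT2A no difference was detected in the same libraries. It stood at 214, 195 and 240 CPM in p53-null and at 260, 188 and 187 CPM in p53-WT, with overlapping groups. Its log2 fold change was -0.03 (95% interval -0.36 to 0.30, edgeR adjusted p = 0.87). Leaving out p53-null replicate 3, p53-WT replicate 2 or p53-WT replicate 3 turned the sign. MTF1 stood at 23.0, 26.9 and 26.8 CPM in p53-null and at 22.6, 24.3 and 21.9 CPM in p53-WT, with a log2 fold change of -0.16 (95% interval -0.40 to 0.09, edgeR adjusted p = 0.24). It passed without both replicate 1 libraries (-0.21, edgeR adjusted p = 0.033).

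MT1X made up less of the metallothionein reads in every Saos-2 library than in any TOV-112D library. Per 100 MT2A counts there were 79.1 and 86.0 MT1X counts in DMSO, 56.3 and 69.1 with UCI-1001 and 47.9 and 55.9 with UCI-1014. In Saos-2 cells there were 10.7, 10.04 and 10.1 MT1X counts per 100 in p53-null and 4.02, 3.74 and 4.29 in p53-WT. The DMSO values lay above those of both compounds, while the UCI-1001 and UCI-1014 ranges nearly met at 55.9 and 56.3. The p53-null values lay above the p53-WT values. The ratio was described only, without a test.

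**Figure D4:**
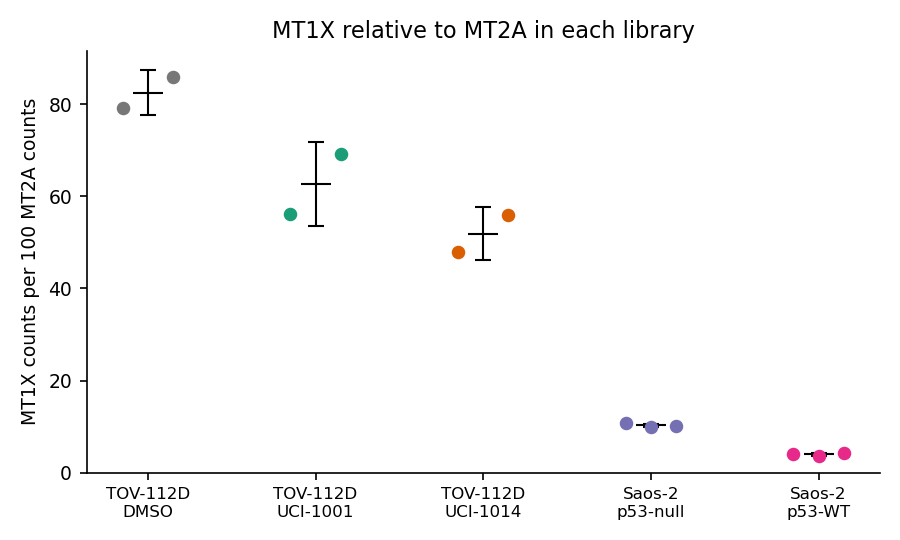
MT1X counts per 100 MT2A counts (y axis) in each library by group (x axis). Points are libraries and bars are the mean with SD. The ratio runs from 79.1 to 86.0 in DMSO-treated TOV-112D down to 3.74 to 4.29 in p53-WT Saos-2.

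The gene patterns most like that of MT2A were sought over 3 log2 fold changes (UCI-1001, UCI-1014 and p53-WT, each against its control) among 12312 genes. The smallest root mean square differences were those of DPM3 (0.064), TTC30B (0.11), JRK (0.12), CFAP157 (0.12) and RBX1 (0.13). Of these comparisons MT2A itself passed the test only with UCI-1014. Its SE was 0.17, 0.19 and 0.15 in the order given, larger than each of these differences. The order of these close genes was therefore not resolved. The other members were far from MT2A, MTF1 at rank 5960 (0.68), MT1X at rank 8892 (0.91) and SLC30A1 at rank 11500 (1.57).

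Other genes of zinc transport changed in both directions with UCI-1014, where 44.2% of all genes passed the test, and in 1 case with UCI-1001, where 13.0% did. Of the 6 tested ZnT exporters other than SLC30A1, 0 passed with UCI-1001 by edgeR and 0 by DESeq2 (log2 fold changes from -0.18 to 0.23). An unadjusted p under 0.05 was reached by 2 of them, and by 4062 of 14989 genes with identifiers kept apart. With UCI-1014, 3 of these exporters rose and 1 fell (median log2 fold change 0.14, against -0.013 over all genes). SLC30A7, which loads zinc into the secretory pathway, rose by a log2 fold change of 0.56 and SLC30A5 by 0.26, while SLC30A4 fell by 0.27. The call of SLC30A5 was lost in 3 of 13 alternatives, among them without DMSO replicate 1 and without UCI-1014 replicate 1. The call of SLC30A4 was lost in 5 of 13, among them without either DMSO library and without UCI-1014 replicate 2, where its log2 fold change was -0.15. Of the 11 tested ZIP importers, which bring zinc into the cytosol, 1 rose with UCI-1001, and 2 rose and 2 fell with UCI-1014 (median -0.019). The call with UCI-1001 was SLC39A9 (log2 fold change 0.16, edgeR adjusted p = 0.041), and it was lost in 5 of 13 alternatives. SLC39A14 rose by 0.41 and SLC39A9 by 0.45 with UCI-1014. SLC39A11 fell by 0.28 with UCI-1014, a call also lost in 5 of 13 alternatives.

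In p53-WT Saos-2 cells the transporters were called in both directions, as were genes in general (65.0% called, 32.9% higher and 32.1% lower). Beside the rise of SLC30A1, 2 of 7 tested ZnT exporters rose and 3 fell (median log2 fold change -0.73, against -0.013 over all genes). SLC30A4, SLC30A5 and SLC30A6 fell by 0.84, 0.73 and 0.76 on the log2 scale. Of the 11 ZIP importers 3 rose and 5 fell (median -0.021), with SLC39A11 at 1.71, SLC39A13 at 1.43 and SLC39A1 at -1.01.

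Copper-handling genes, of interest because metallothioneins also bind copper, changed in both directions. With UCI-1001, 1 of 10 rose and 1 fell (median log2 fold change -0.052), where 13.0% of all genes passed the test. With UCI-1014, 2 rose and 3 fell (median -0.10), where 44.2% of all genes passed. The copper exporter ATP7A stood at 86.1 CPM in DMSO, 125 CPM with UCI-1001 and 198 CPM with UCI-1014, log2 fold changes of 0.54 and 1.20. SCO2, which delivers copper to cytochrome c oxidase, fell by 0.39 and 0.84, of which the first call was lost in 6 of 13 alternatives (adjusted p of 0.070 to 0.42), among them DESeq2 and without either DMSO library or UCI-1001 replicate 2. In p53-WT Saos-2 cells 6 of 10 rose and 2 fell (median 0.42), where 65.0% of all genes passed (32.9% higher, 32.1% lower). CCS, the copper chaperone of superoxide dismutase, changed most, at 1.65.

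NRF2-type stress genes, which oxidants and heavy metals often raise together with metallothioneins, rose with both compounds, and with UCI-1014 this was opposite in direction to MT1X and MT2A. With UCI-1014 all 7 tested genes rose (median log2 fold change 1.51), where 22.8% of all genes were called higher. With UCI-1001 6 of 7 rose (median 0.51), where 7.75% of all genes were called higher. HMOX1, heme oxygenase 1, stood at 34.3 CPM in DMSO, 322 CPM with UCI-1001 and 1214 CPM with UCI-1014, log2 fold changes of 3.23 and 5.15. GCLM, a subunit of the glutathione-making ligase, rose by log2 fold changes of 0.79 and 2.06. In p53-WT Saos-2 cells 2 of 7 rose and 3 fell (median -0.34), where 32.9% of all genes were called higher and 32.1% lower. HMOX1 stood at 1.98 and SRXN1 at -1.05 on the log2 scale.

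**Figure D5:**
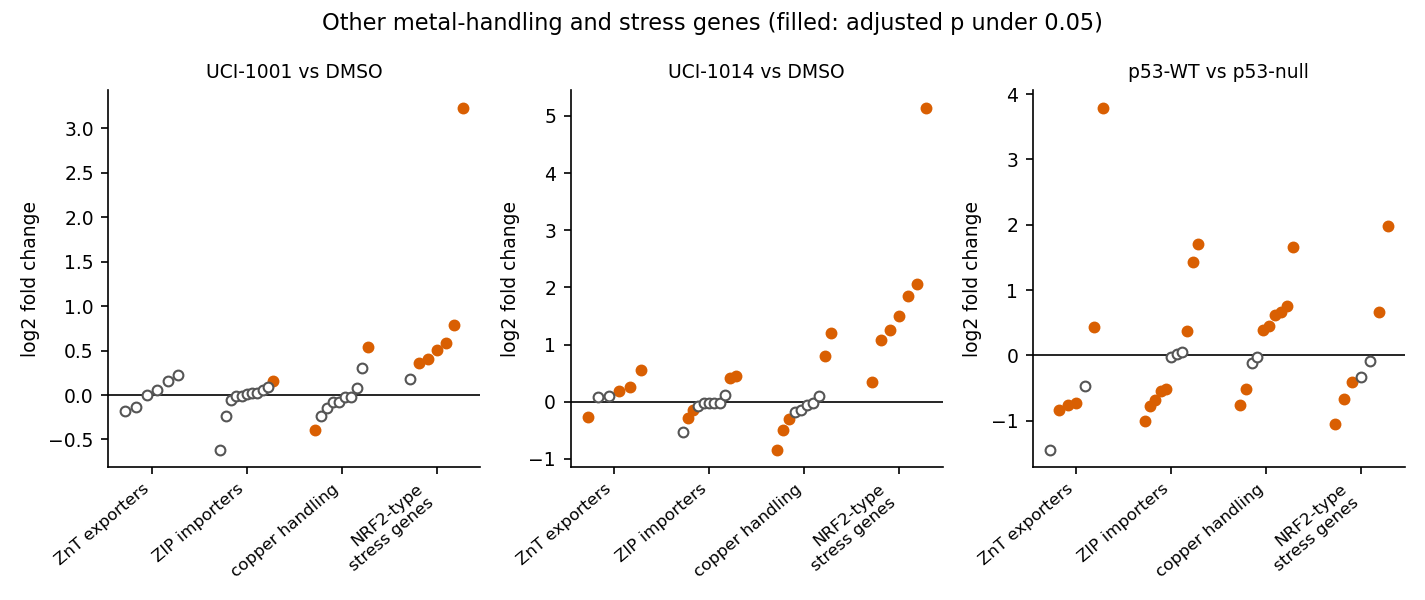
Log2 fold change (y axis) of the tested genes of 4 lists (x axis) with UCI-1001, with UCI-1014 and in p53-WT. Each point is a gene, and filled points passed the edgeR test at an adjusted p under 0.05. All 7 NRF2-type stress genes pass with UCI-1014, with HMOX1 at 5.15, where 44.2% of all genes pass. Zinc and copper genes lie on both sides of 0.

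Markers moved in part with the groups. With UCI-1014, 1 of 4 tested osteoblast markers fell, RUNX2 by 0.69 on the log2 scale (edgeR adjusted p = 0.0048), and 0 rose. None of the 3 tested ovarian and epithelial markers passed (log2 fold changes from -0.01 to 0.28, 0 at an unadjusted p under 0.05 and 0 by DESeq2). Over all genes 44.2% passed, and DESeq2 called 5531 of 14430. With identifiers kept apart, 7666 of 14989 genes had an unadjusted p under 0.05. The osteoblast list summed to 60.2 to 62.3 CPM in DMSO and 60.4 to 63.7 CPM with UCI-1014. The ovarian and epithelial list summed to 7932 to 8050 CPM and 7726 to 8139 CPM. Nearly all of the latter sum was VIM, at 7929 to 8046 CPM in DMSO and 7722 to 8134 CPM with UCI-1014. It therefore says little about the other markers of that list. Their part in the MT1X and MT2A results was not tested. Of the ovarian and epithelial list 2 of 5 tested markers rose in p53-WT, where 65.0% of all genes passed the test. The 7 markers summed to 2724 to 3118 CPM in p53-null and 3112 to 3348 CPM in p53-WT. VIM alone stood at 1960 to 2347 CPM and 2263 to 2288 CPM. Of the osteoblast list 1 of 3 tested markers rose and 2 fell, and the 8 markers summed to 26.2 to 27.6 CPM in p53-null and 42.2 to 50.3 CPM in p53-WT, with SP7 at 0 counts in both groups. KRT8 rose from 203 to 491 CPM and PAX8 from 3.73 to 7.19 CPM. Of the osteoblast markers SPP1 rose from 14.9 to 39.1 CPM. RUNX2, a bone transcription factor, fell from 10.4 to 5.33 CPM and COL1A1 from 1.58 to 0.471 CPM. Their part in the SLC30A1 and MT1X results was not tested.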

How the data were processed

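Total RNA of 12 libraries (5 groups) was sequenced. The authors quantified reads against GRCh38 with kallisto 0.48.0, summed the estimated counts of transcripts by Ensembl gene and made them integers, and tested them with DESeq2 1.38.3, per the submitters' processing notes. The deposited gene counts are not normalized. The authors also deposited TPM, estimated counts and effective lengths per transcript, and the TPM values entered no test. Reads were not aligned again.

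Counts were summed by symbol for the listed genes and tested with edgeR 4.0.16 (TMM, filterByExpr defaults, glmQLFit and glmQLFTest, two-sided, Benjamini-Hochberg over all genes tested, R 4.3.3), with 1 fit per cell line and no replicate block. All 9 members were described. From each list at most 3 genes per comparison were named, those with the largest log2 fold change in size at an adjusted p under 0.05, 1 CPM or more on average and groups that did not overlap. The members and the gene lists were chosen with earlier results of these data known. Alternatives were DESeq2 1.42.0, RLE size factors, no filter, a replicate block, identifiers kept apart, fewer or all 12 libraries and leaving out each library. The floor of 3 counts covers counting error only. GENCODE 44 and RefSeq gave positions and promoters. Figures used Python 3.11.15 with matplotlib 3.10.9. The check of the Saos-2 labels by the targeted gene is not reported here.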

Additional observations from a re-analysis of the deposited data

How the results depend on the processing

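Over the alternatives, 195 of 212 values of the members kept their direction and their side of the threshold, as did 488 of 530 values of the other named genes, of which 42 were no longer called and 0 reversed. The other genes were named only where they had passed with large changes and groups that did not overlap. That choice favours keeping a call, so their share is not a measure of stability. The falls of MT1X and MT2A with UCI-1014, against DMSO and against UCI-1001, and the changes of MT1X and SLC30A1 in p53-WT kept their calls in every alternative run, with adjusted p up to 0.049. The number of members called with UCI-1001 was 0, and became 1 (SLC30A1) with no filter on low counts and with only the 4 libraries compared, and ranged from 0 to 1 as single libraries were left out. It was 2 to 3 for UCI-1014 against DMSO and 2 throughout for UCI-1014 against UCI-1001. For p53-WT it was 2, and 3 without both replicate 1 libraries, where MTF1 was called.

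The signs that turned were those of small changes. As single libraries were left out, MT2A with UCI-1001 ranged from -0.32 to 0.21 on the log2 scale (0.013 without DMSO replicate 1, 0.21 without UCI-1001 replicate 2). SLC30A1 with UCI-1014 ranged from -0.018 to 0.14 and was -0.0020 in one fit of all 12 libraries. MT2A in p53-WT ranged from -0.20 to 0.060. The cause was not tested.

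Whether replicate numbers pair the samples was not settled: same-numbered libraries deviated with correlations of -0.13 to 0.13. In TOV-112D the 2 libraries of a group deviate as mirror images, so these correlations cannot settle it there. In Saos-2, where there are 3 pairs, same-numbered libraries had correlations of 0.127, 0.066 and 0.053. Not every Saos-2 library correlated best with its own number. With a replicate block, SLC30A1 in p53-WT had a log2 fold change of 2.43, and the members called were 0, 3, 2 and 2 as without it. Genes called went from 1943 to 1452 with UCI-1001 and from 6629 to 6215 with UCI-1014, and up from 9798 to 10087 in p53-WT. With the numbers crossed, an alternative chosen after seeing the data, 4608 genes were called for UCI-1014 against UCI-1001, against 4148 without a block and 3646 with it. Leaving out both replicate 1 libraries of Saos-2 was also chosen after seeing the data. In one fit of all 12 libraries, 293 genes were called with UCI-1001, 3377 with UCI-1014 and 869 for UCI-1014 against UCI-1001. Without 1 library, calls with UCI-1001 ranged from 711 to 2158. Depth limits 5 members with at most 3 counts per library.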

Other observations

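SLC30A10, a transporter of the ZnT family best known for manganese export, was chosen after its values were seen, since its mean lies under 1 CPM. It had 3, 1 and 0 counts in p53-null and 18, 21 and 21 counts in p53-WT libraries (edgeR adjusted p = 2.6e-04). In TOV-112D it did not pass the filter on low counts, with 4 and 4 counts in DMSO, 8 and 9 with UCI-1001 and 10 and 8 with UCI-1014.

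The scale matters for MT2A in Saos-2 cells. In TPM its mean was 1.21-fold lower in p53-WT than in p53-null and the ranges did not overlap, while in CPM the ranges overlapped and the log2 fold change was -0.03. For SLC30A1 the ratio of mean TPM was 5.05, near the 5.68-fold of the count test, and for MT1X the mean TPM was 3.08-fold lower.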
